A study of Mus musculus with 6 samples.

Results

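The BiP chaperone cycle was followed through 10 transcripts, chosen by gene symbol around Hyou1, the protein that the series title names as the target of the compound, and all 10 were found among the 21033 symbols of the count table. They are Hyou1 and Sil1, the nucleotide exchange factors, Hspa5, which encodes BiP, Hsp90b1, which encodes GRP94, the J proteins Dnajb9, Dnajb11, Dnajc3 and Dnajc10, and the BiP partners Sdf2l1 and Manf. The cells were primary synovial fibroblasts from ankle joints of hTNFtg mice, animals with a human TNF transgene, and this genotype was shared by every sample. After 3 passages, 1 group received 10 µM compound 33 for 48 h and the other received DMSO, the vehicle, with 3 libraries in each. The sources used here do not give the age or sex of the animals, how many animals stand behind a library, or the promoter of the transgene. No cells without the transgene were part of the comparison, so every value describes fibroblasts that carry it.

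BiP is the Hsp70 of the endoplasmic reticulum, the compartment in which secreted and membrane proteins fold. It binds exposed stretches of unfolded chains in a cycle driven by ATP, where J proteins stimulate hydrolysis and lock the chain in place, and exchange factors release the nucleotide and with it the chain. GRP94, the Hsp90 of the same compartment, acts on chains that have already passed through BiP. When unfolded proteins accumulate, the sensors IRE1, PERK and ATF6 raise transcription of many of these genes, which is called the unfolded protein response. Fibroblasts secrete much collagen and other matrix and draw on this machinery.

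Promoters of the members were searched for ERSE, a short element through which ATF6 acts. In it the letters CCAAT and CCACG are held apart by a fixed spacer. RefSeq promoters on GRCm38.p6, from 250 bases before the annotated start to 50 after it, were at hand for 7 of the 10 members; those of Hyou1, Sil1 and Manf were not used here. On either strand, ERSE, spelled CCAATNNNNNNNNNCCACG, was present in 3 of these 7, the promoters of Hspa5, Hsp90b1 and Dnajc3, against 0.119% of 32851 promoters of this length. The second form, ERSE-II, in which ATTGG and CCACG are separated by any single base, was found in 1 of the 7, Dnajb11, against 0.0365% of all. The promoters of Dnajb9, Dnajc10 and Sdf2l1 held neither form, so no element was common to the set. The sites are printed because they are the best known response elements of this gene set. Capitals mark the fixed letters, and each line runs 5′ to 3′ along the strand of the motif.
Hspa5 ERSE: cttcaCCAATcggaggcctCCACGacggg
Hsp90b1 upstream ERSE: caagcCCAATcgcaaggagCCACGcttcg
Hsp90b1 downstream ERSE: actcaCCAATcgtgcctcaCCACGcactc
Dnajc3 ERSE: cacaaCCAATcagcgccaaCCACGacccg
Dnajb11 ERSE-II: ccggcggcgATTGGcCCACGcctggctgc
In the same order the windows lie at chr2:34772020-34772048 (plus strand), chr10:86705633-86705661 (minus), chr10:86705528-86705556 (plus), chr14:118937822-118937850 (plus) and chr16:22857843-22857871 (plus). Neither TGACGTGG, the core bound by XBP1 and ATF6, nor TGATGNAA, the core bound by ATF4 with C/EBP factors, was found on either strand in the 7 promoters, where 0.676% and 3.97% of all promoters hold them. None of the 4 patterns overlapped another in these windows, and a match describes letters only.

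The libraries held 1594052 to 2897207 reads, and 10124 genes passed the filter on low counts, the 10 members among them. Levels are counts per 1000000 reads (CPM) after TMM scaling. The kit reads 3′ ends, so the count of a gene does not grow with its length and levels of different genes can be set side by side as reads per 3′ end, although priming and mapping can still differ between genes. Markers of the labelled cell type were present, with 9 of 9 tested and a summed level of 12132 to 13136 reads per 1000000 with DMSO and 10154 to 12077 with compound 33. Of the leukocyte list 1 of 7 markers passed the filter, and the sum ran from 41.8 to 113 with DMSO and from 38.2 to 74.3 with compound 33. Endothelial, pericyte and bone markers summed to at most 11.3 in any library, and Cd3e, Cd79a, Pecam1, Acan, Ibsp and Sp7 had 0 reads throughout. Cartilage markers, of which 2 of 4 passed the filter, summed to 76.8 to 166 with DMSO and 115 to 146 with compound 33. Their part in the results was not tested. Libraries of a group differed by more than counting noise (chi-square per degree of freedom 4.56 to 18.9) and were counted separately. Whether they came from separate cultures is not said in the labels, so each p-value measures the spread between libraries, which may be technical.

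Setting compound 33 against DMSO asks whether the transcripts of the named target and of its partners differed between treated and vehicle cells. No difference of a BiP cycle transcript exceeded the spread between libraries. In edgeR's quasi-likelihood test 0 of the 10 members passed, where 0.0296% of all tested genes did, and 0 members lay under an unadjusted p of 0.05, where 6.87% of all genes did. DESeq2 passed 0 members and 0.131% of all genes, and limma-voom 0 members and 0.0198% of all genes. For each of the 10, libraries of the 2 groups overlapped in TMM-scaled CPM, while in 13.4% of all genes they did not. For BiP this depended on the scaling, as given below. The log2 fold change was above 0 for 6 members and below 0 for 4, with a median of 0.15 (0.03 without DMSO replicate 1), beside -0.01 over all tested genes, of which 48.9% lay above 0. In bulk cultures, fewer cells making a transcript and less of it per cell cannot be told apart.

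The intervals show how large a difference the libraries leave possible. For 9 of the 10 members the 95% interval lay wholly within a 2-fold difference in either direction, as it did for 65.6% of all tested genes. The exception was Sil1, whose interval reached 2.22-fold higher. In the authors' deposited table, 0 of the 10 members have an adjusted p under 0.05, the smallest unadjusted p among them being 0.149, and the log2 fold changes there lie within 0.01 of those given here.

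**Figure D1:**
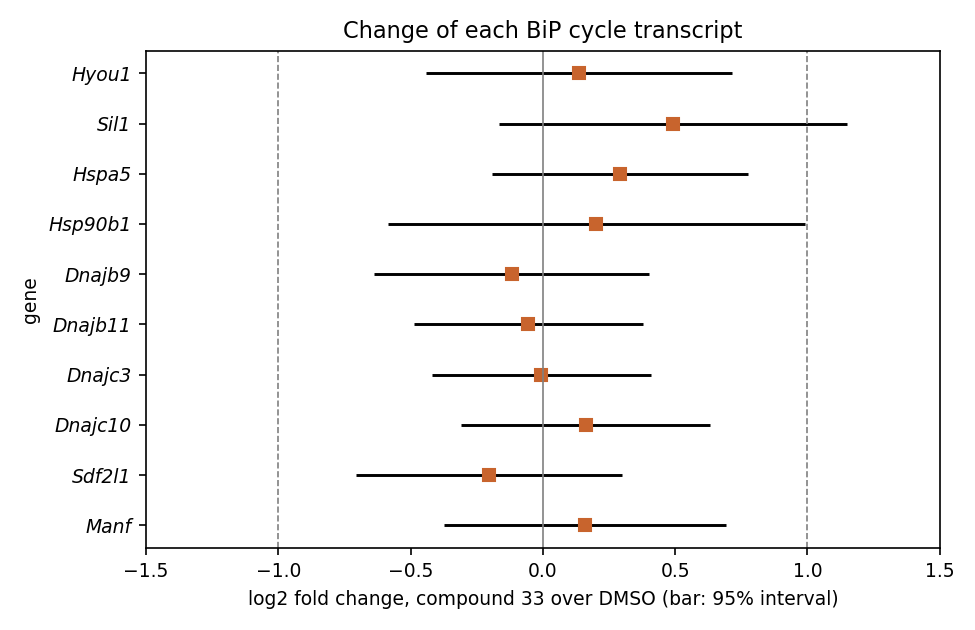
Log2 fold change of each BiP cycle transcript, compound 33 over DMSO, with its 95% interval from edgeR (n = 3 libraries per group); the solid line marks no difference and the dashed lines a 2-fold difference in either direction. Every interval crosses 0, and that of Sil1 alone passes a dashed line, at 1.15.

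The 10 transcripts spanned a wide range of levels. BiP stood far above the rest, with 2701 to 4208 CPM over the 6 libraries and no overlap with the next gene. Manf (478 to 855 CPM) and Hsp90b1 (205 to 740 CPM) followed and overlapped each other. Dnajc10 (245 to 381 CPM), Dnajc3 (183 to 206 CPM) and Dnajb11 (128 to 160 CPM) did not overlap one another, although the low Hsp90b1 library reached into the range of Dnajc3. Dnajb9 (68.5 to 110.4 CPM) and Hyou1 (55.5 to 123 CPM) could not be ranked, each being the higher one in 3 of 6 libraries. Sil1 (24.4 to 73.1 CPM) and Sdf2l1 (36.9 to 56.4 CPM) were the lowest and overlapped too. Hyou1 stood above Sil1 in 6 of 6 libraries.

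**Figure D2:**
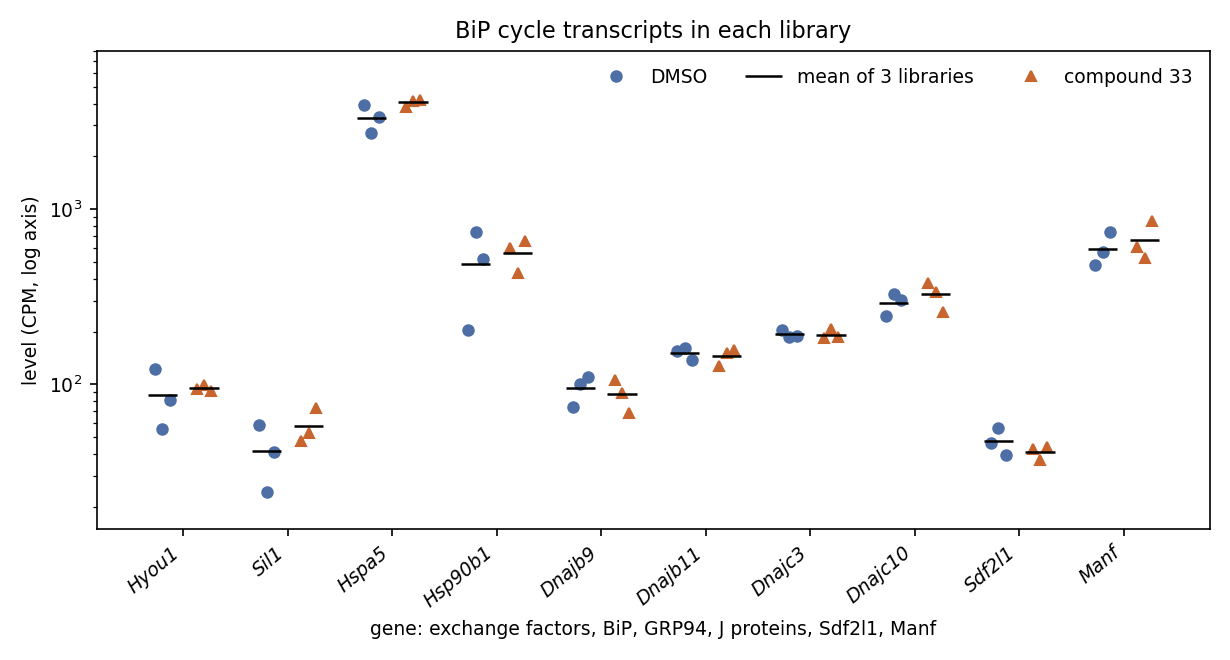
Level of each BiP cycle transcript in CPM on a log axis, with 1 point per library (circles DMSO, triangles compound 33) and bars at the mean of 3 libraries. The Hyou1 points spread from 55.5 to 123 CPM with DMSO and lie between 92.1 and 99.1 with compound 33, and the lone low Hsp90b1 point at 205 CPM is DMSO replicate 1.

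Hyou1, also called GRP170 or ORP150, is a large relative of Hsp70 that opens the nucleotide pocket of BiP and holds unfolded chains itself. The protein-coding gene (ENSMUSG00000032115.14) spans 44379490 to 44392369 of chromosome 9 on mm10, plus strand. With DMSO its level was 123, 55.5 and 81.5 CPM in replicates 1, 2 and 3, from 232, 123 and 234 reads. With compound 33 it was 93.5, 99.1 and 92.1 CPM, from 153, 239 and 179 reads. The highest and the lowest library were thus both vehicle libraries, and the treated ones lay between them. The coefficient of variation was 39.3% with DMSO and 3.87% with compound 33, where counting alone gives about 7.46% and 7.37%; a difference in spread was not tested. The log2 fold change was 0.14 (SE 0.27, 95% interval -0.44 to 0.72, adjusted p = 0.956), so a Hyou1 level between 0.735 and 1.64 times that of DMSO was compatible with these libraries. Its sign turned to -0.09 without DMSO replicate 2, and the estimate was 0.47 without DMSO replicate 1.

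Sil1, the smaller exchange factor, binds the nucleotide domain of BiP by a different fold. Its level was 58.9, 24.4 and 41.1 CPM with DMSO and 47.7, 53.1 and 73.1 CPM with compound 33. DMSO replicate 2 was the low library for Sil1 as for Hyou1, and compound 33 replicate 3 was the high one. Means were 41.4 ± 17.3 and 57.9 ± 13.4 CPM (SD, n = 3), a log2 fold change of 0.49 (SE 0.31), which was the estimate farthest from 0 in the set and did not pass (adjusted p = 0.823 in edgeR). Without DMSO replicate 1 it was 0.82 (adjusted p = 0.407), and without DMSO replicate 2 it was 0.23. With 54 to 142 reads per library, counting alone gives a coefficient of variation of about 11.0% with DMSO and 9.60% with compound 33.

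BiP, encoded by Hspa5 on chromosome 2 (34771970 to 34777547, plus strand), is the centre of the cycle and the classic readout of the unfolded protein response. Its level was 3901, 2701 and 3343 CPM with DMSO and 3801, 4152 and 4208 CPM with compound 33. All 3 treated libraries lay above DMSO replicates 2 and 3, and 1 of them lay below DMSO replicate 1, so the groups overlapped after TMM scaling. As an unscaled share of all reads they narrowly did not overlap, with 0.275% to 0.384% with DMSO and 0.390% to 0.420% with compound 33. How many genes separate in unscaled shares was not counted, while 13.4% of all tested genes did so after TMM scaling. The separation is therefore not shown to be particular to BiP. In edgeR without a scaling factor the log2 fold change was 0.28 (adjusted p = 0.904). The log2 fold change was 0.29 (SE 0.22, 95% interval -0.19 to 0.77, adjusted p = 0.886). With DMSO the coefficient of variation was 18.1%, where counting alone gives 1.16%. Leaving out DMSO replicate 1 gave 0.42, and leaving out DMSO replicate 2 gave 0.17.

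Hsp90b1, on chromosome 10 (86690209 to 86705509, minus strand), encodes GRP94, which folds integrins and Toll-like receptors among others. It had 386 reads in DMSO replicate 1 against 1640 and 1497 in the other DMSO libraries, and its level was 205, 740 and 521 CPM there. The compound 33 libraries stood at 601, 430 and 656 CPM, inside the range of the vehicle. DMSO replicate 1 lay 3.02-fold below the mean of the other DMSO libraries on the log scale, while the same library was the highest of all for Hyou1. Of 2109 genes with a mean of at least 100 CPM, 11 were further below the other DMSO libraries there. The log2 fold change was 0.20 (SE 0.36), with -0.16 when DMSO replicate 1 was left out and 0.63 when DMSO replicate 2 was, neither of which passed.

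Of the J proteins, Dnajb11 (ERdj3) and Dnajc3 (ERdj6 or p58IPK) hand unfolded chains to BiP, Dnajb9 (ERdj4) takes part in degradation and in restraining IRE1, and Dnajc10 (ERdj5) carries disulfide reductase activity. Dnajc3 was the steadiest member, at 204, 187 and 188 CPM with DMSO and 183, 206 and 186 CPM with compound 33. Its coefficient of variation was 4.85% with DMSO and 6.60% with compound 33, where counting alone gives 4.79% and 5.20%. The log2 fold change of Dnajc3 was -0.01 (95% interval -0.42 to 0.41).

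Dnajb11 stood at 156, 160.1 and 138 CPM with DMSO and 128, 151 and 157 CPM with compound 33 (log2 fold change -0.05, SE 0.20). Dnajb9 varied more, at 74.2, 101 and 110.4 CPM with DMSO and 106, 89.1 and 68.5 CPM with compound 33, and its log2 fold change was -0.12 (SE 0.24). Dnajc10 stood at 245, 327 and 303 CPM with DMSO and 381, 338 and 260 CPM with compound 33, with a log2 fold change of 0.16 (SE 0.22). For Dnajc10 and Dnajb9, low libraries occurred in both groups: DMSO replicate 1 and compound 33 replicate 3 were the lower ones for each. Adjusted p-values of the 4 J proteins lay between 0.936 (Dnajc10) and 0.998 (Dnajc3) in edgeR.

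Sdf2l1 forms a complex with Dnajb11 and is among the strongly induced genes of the unfolded protein response in many cells. It stood at 46.1, 56.4 and 39.7 CPM with DMSO and 42.8, 36.9 and 43.8 CPM with compound 33, from 70 to 125 reads per library. All treated libraries lay under DMSO replicates 1 and 2, and 1 of them lay under replicate 3 as well. Its estimate was the lowest of the set, -0.20 on the log2 scale (SE 0.23, adjusted p = 0.925). Manf, a small secreted protein that binds the nucleotide domain of BiP and slows exchange, stood at 478, 569 and 737 CPM with DMSO and 611, 526 and 855 CPM with compound 33. The log2 fold change of Manf was 0.16 (SE 0.25, adjusted p = 0.941), and it was -0.06 without compound 33 replicate 3. How the counting treated strand is not stated in the sources used here. Exons of 4 members (Sil1, Hsp90b1, Dnajb9 and Manf) overlap another annotated gene. In the case of Manf these include exons of Rbm15b on the same strand and Dcaf1 on the other. Hsp90b1 overlaps exons of Gm15344 and Gm25745 on the same strand and of 1810014B01Rik on the other. For Sil1 and Dnajb9 the overlaps are on the opposite strand only. How reads from all these stretches were assigned is therefore not known here.

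**Figure D3:**
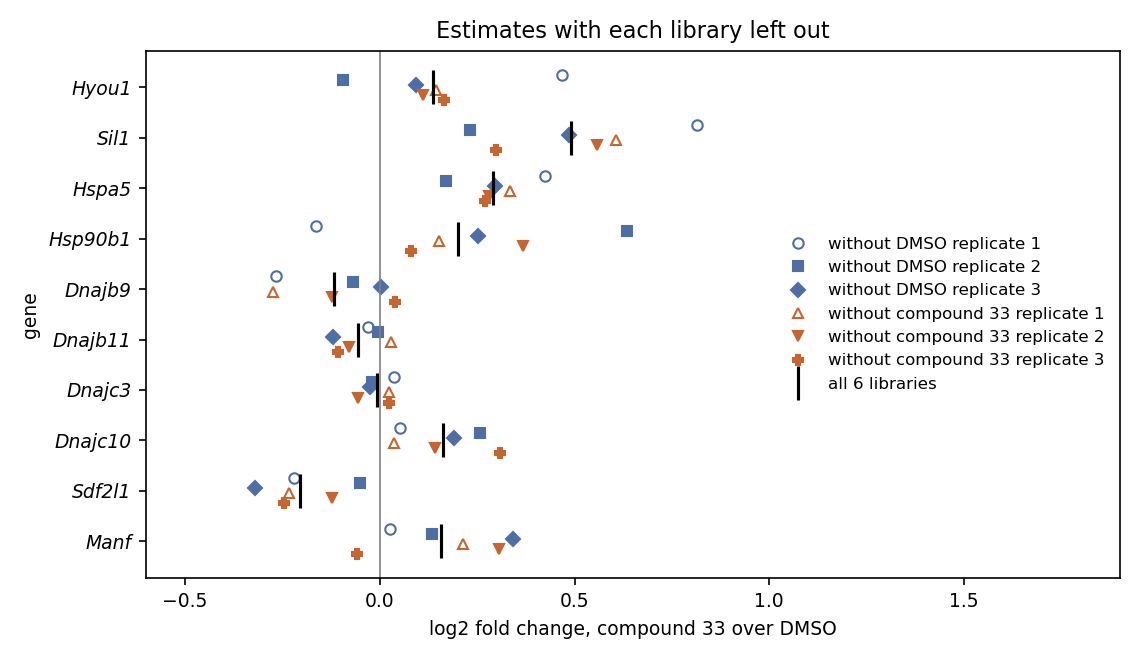
Log2 fold change of each member, compound 33 over DMSO, refitted with 1 library left out (blue symbols a DMSO library, orange a compound 33 library), beside the estimate from all 6 libraries (black tick). Hsp90b1 moves from -0.16 to 0.63 and Hyou1 from -0.09 to 0.47, while Dnajc3 stays between -0.06 and 0.04.

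The balance between members was read as the ratio of 2 read counts in the same library, which no library scaling can alter. BiP outnumbered Hyou1 by 31.7, 48.7 and 41.0 reads to 1 with DMSO and by 40.6, 41.9 and 45.7 to 1 with compound 33. The treated libraries lay inside the vehicle range, and the log2 ratio of Hyou1 to Hspa5 differed by -0.10 between groups (exact permutation test, two-sided, p = 0.8). Hyou1 outnumbered Sil1 by 2.09, 2.28 and 1.98 to 1 with DMSO and by 1.96, 1.87 and 1.26 to 1 with compound 33. Here the groups did not overlap, with a difference of -0.34 in the log2 ratio (exact permutation test, two-sided, p = 0.1, the smallest that 3 libraries against 3 can give). Adjusted over the 10 ratios tested it was 0.25 by the same exact test, and without compound 33 replicate 3 the difference was -0.14. Of all genes compared with Sil1 in this way, 18.3% were lower without overlap in the treated libraries.

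Against BiP, 7 of the 9 other members had a lower mean ratio with compound 33, and for 3 of them the groups did not overlap, Dnajb11, Dnajc3 and Sdf2l1. The log2 ratio differed by -0.36 for Dnajb11, -0.31 for Dnajc3 and -0.50 for Sdf2l1, each with p = 0.1 in the exact permutation test and 0.25 after adjustment. These values are not particular to the set. Over 10105 tested genes the median log2 ratio to Hspa5 differed by -0.31, 81.5% of them were lower, and 20.8% had groups that did not overlap. The ratios share 1 denominator, so they repeat the position of BiP in the 6 libraries. Taken per library, 1 read of the 4 J proteins stood against 5.75, 3.49 and 4.53 reads of BiP with DMSO and 4.76, 5.29 and 6.27 with compound 33, and these ranges overlapped.

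**Figure D4:**
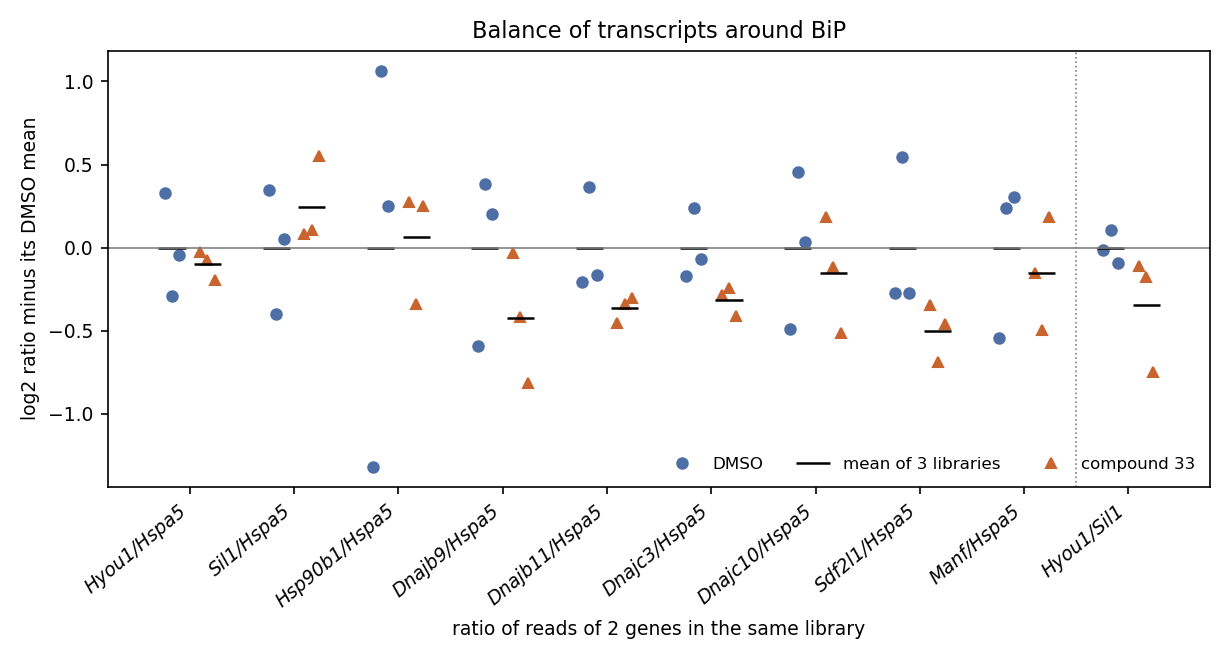
Log2 ratio of the reads of 2 genes in the same library, minus its mean over the DMSO libraries, with 1 point per library (circles DMSO, triangles compound 33) and bars at the mean of 3 libraries. The triangles for Dnajb11, Dnajc3 and Sdf2l1 over Hspa5 and for Hyou1 over Sil1 lie below all circles, while those for Hyou1 over Hspa5 lie inside the range of the circles.

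Summed over the 10 genes, the BiP cycle took 0.541%, 0.501% and 0.545% of all reads with DMSO and 0.615%, 0.615% and 0.619% with compound 33. The treated libraries were higher and nearly alike in this sum of unscaled shares, of which BiP made up 54.9% to 71.0%. BiP alone took 0.384%, 0.275% and 0.331% with DMSO and 0.390%, 0.420% and 0.394% with compound 33, also without overlap. The share of all genes without overlap was not counted for unscaled shares. Without BiP the other 9 took 0.157%, 0.226% and 0.214% with DMSO and 0.225%, 0.195% and 0.224% with compound 33, which overlapped. The sum thus does not show a rise of the whole set. Since the sum was formed with results known, it is a description and carries no test.

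Across libraries, BiP and Sil1 varied more like Hyou1 than the J proteins did. Likeness was measured as the root mean square difference of centred log2 CPM over the 6 libraries, with all other 10123 tested genes ranked by it. Hspa5 ranked 202nd (difference 0.19), Sil1 864th (0.27), Dnajc3 1694th (0.31) and Dnajb11 3164th (0.38). The measure also depends on how much a gene varies, so a steady gene can rank well without following Hyou1. Dnajc3 and Dnajb11 ranged over 0.17 and 0.32 on the log2 scale, against 1.14 for Hyou1, so their ranks do not show a shared pattern. The remaining members ranked between 5424th (Dnajc10) and 9821st (Hsp90b1, 0.90), so the GRP94 transcript was among the genes least like Hyou1. The genes outside the set that came nearest, among those with a mean of at least 20 CPM, were the lysosomal membrane protein Lamp1 (0.09), Aurkaip1 (0.09), the proteasome subunit Psmd4 (0.10), the asparaginyl hydroxylase Hif1an (0.10) and the adaptor Frs2 (0.10). All of these, like Hyou1, were highest in DMSO replicate 1 and lowest in DMSO replicate 2, so the likeness rests mainly on the vehicle libraries.

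A list of sensors and factors linked to the unfolded protein response had 10 of 13 tested members above 0 and a median log2 fold change of 0.06. Not all of them act upstream of the set. None passed in edgeR, and 1 of 13, Ddit3, lay under an unadjusted p of 0.05, beside 6.87% of all tested genes. Groups did not overlap for 2 of the 13, Ddit3 and Nfe2l1, beside 13.4% of all. Ddit3, which encodes the factor CHOP downstream of PERK, stood at 103, 67.7 and 112 CPM with DMSO and 136, 136 and 191 CPM with compound 33, without overlap, and differed by 0.71 on the log2 scale (SE 0.25, adjusted p = 0.599). Xbp1, the factor that IRE1 activates by splicing, had 0.03 (SE 0.19), and the splicing itself cannot be read from 3′ ends. Creb3l1, a membrane-bound factor related to ATF6, had -0.39 (SE 0.37). The most abundant members were Atf4, the translationally controlled factor of the PERK branch, at 0.26 (SE 0.24), and Mbtps1, the protease that first cuts ATF6, at 0.06 (SE 0.20).

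Other target genes of ATF6 and XBP1 were divided evenly, 11 above and 11 below 0 of 22 tested, with a median of -0.02. The values farthest from 0 among them were those of Sec24d, a cargo adaptor of transport vesicles, at -0.72 (SE 0.26, adjusted p = 0.636), and of the disulfide isomerase Pdia4, at -0.59 (SE 0.53, adjusted p = 0.892). The most abundant were Pdia6 at -0.18 (SE 0.21) and calreticulin, Calr, at 0.17 (SE 0.23). None passed in edgeR, and Sec24d was the only one under an unadjusted p of 0.05, beside 6.87% of all tested genes. Groups did not overlap for 2 of the 22, Sec24d and Edem1, beside 13.4% of all.

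A list of further J proteins linked to the endoplasmic reticulum, together with BiP partners, had 11 tested genes. It did not separate J domains that face the cytosol from those inside the compartment, so not all of its genes serve BiP. The median was 0.04 (0.18 without DMSO replicate 3, -0.086 without DMSO replicate 2) with 6 above 0. None passed or lay under an unadjusted 0.05. Dnajb14 had the estimate farthest from 0, at -0.91 (SE 0.56), with 1 library far above the others: it stood at 65.2, 43.8 and 244 CPM with DMSO and 60.5, 65.1 and 63.3 CPM with compound 33. Dnajb2 had 0.38 (SE 0.26), and the most abundant, the Sdf2l1 relative Sdf2 and the translocon J protein Sec63, had 0.19 (SE 0.22) and 0.18 (SE 0.22). The Hsp110 family and other cytosolic exchange factors, which serve Hsp70 outside the compartment and include the nearest relatives of Hyou1, had 2 of 8 above 0 and a median of -0.08. Of these, Hspa4 had -0.04 (SE 0.22) and Hsph1 -0.10 (SE 0.27), while Hspbp1, the cytosolic relative of Sil1, had -0.17 (SE 0.26). Bag2 stood at 61.5, 59.1 and 68.9 CPM with DMSO and 47.1, 34.8 and 25.2 CPM with compound 33, without overlap. It was the only 1 of the 8 without overlap, beside 13.4% of all tested genes. No other of the 8 lay under an unadjusted p of 0.05 in edgeR, beside 6.87% of all. The Bag2 value of -0.83 (SE 0.26) did not pass (adjusted p = 0.508).

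The calnexin cycle, the route for glycoproteins that works beside BiP, had 7 of 9 tested members above 0 and a median of 0.14, which was -0.0034 without compound 33 replicate 3 and 0.21 without DMSO replicate 2. Calr, Canx and Pdia3 are also in the ATF6 and XBP1 list. None passed in edgeR, and 2 of 9, Uggt1 and Ganab, lay under an unadjusted 0.05, beside 6.87% of all tested genes. The same 2 were the ones without overlap between groups, beside 13.4% of all. Uggt1, the glucosyltransferase that marks misfolded glycoproteins for another round, stood at 497, 539 and 630 CPM with DMSO and 637, 801 and 1169.5 CPM with compound 33, without overlap, and had 0.65 (SE 0.25, adjusted p = 0.674). Its relative Uggt2 had -0.63 (SE 0.39, adjusted p = 0.823). KDEL receptors, which return BiP, GRP94 and Hyou1 from the Golgi, were listed with the carriers Tmed2 and Tmed10. Of these 5 genes, 1 lay above 0, and the median was -0.27 (-0.13 without DMSO replicate 2). None passed or lay under an unadjusted 0.05, and groups did not overlap for 1 of the 5, Tmed10. Among them Kdelr1 had 0.19 (SE 0.21), Kdelr3 -0.30 (SE 0.23) and the carrier Tmed2 -0.32 (SE 0.28).

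**Figure D5:**
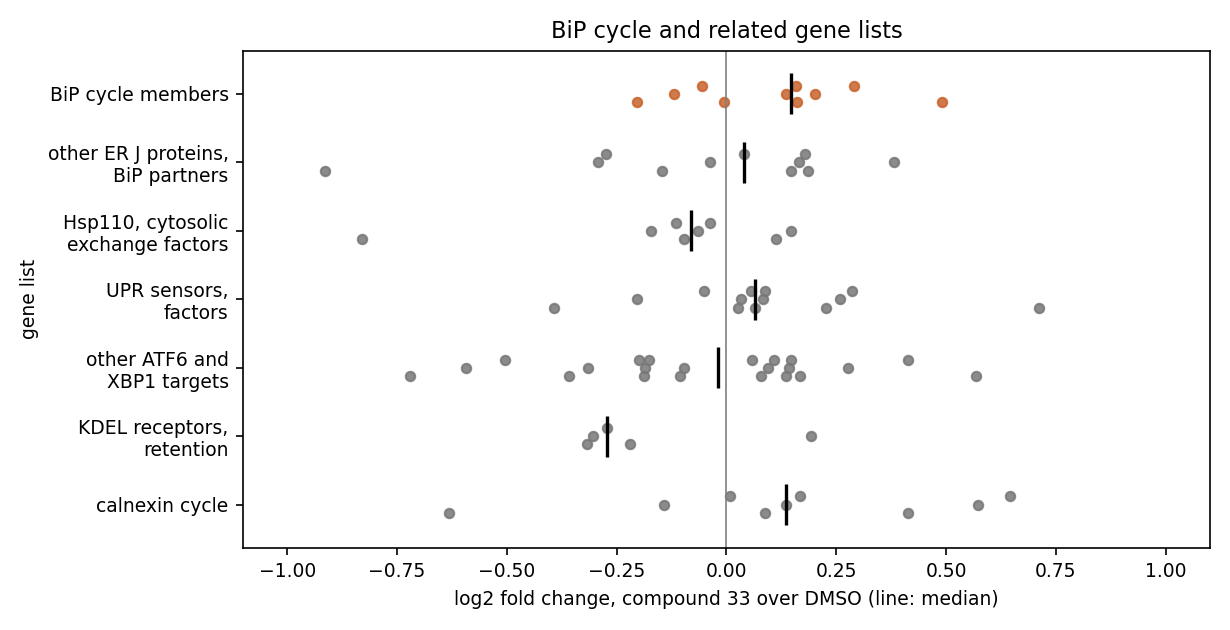
Log2 fold change of each tested gene, compound 33 over DMSO, for the 10 BiP cycle transcripts (orange) and 6 related lists (grey), with a black line at the median of each list; vertical jitter within a list has no meaning. Medians run from -0.27 for the list of KDEL receptors with Tmed2 and Tmed10 to 0.15 for the BiP cycle. No point on the plot passed the test.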

How the data were processed

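Libraries were made from 3′ ends with the QuantSeq kit and sequenced on an Ion Proton, from RNA with an integrity number above 7, per the labels' protocols. Alignment and counting used HISAT2 2.2.1 and featureCounts 2.0.3 on mm10, with FastQC 0.11.9 and DESeq2 also listed, per the submitters' processing notes, and the gene annotation is not stated. The authors deposited raw read counts per gene symbol. The authors' deposited comparison holds a mean normalized signal, a log2 fold change with its standard error, a Wald score, and a p-value with its adjusted value. All 6 count columns entered the fits.

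Counts were fitted in R 4.3.3 with edgeR 4.0.16 (filterByExpr with a minimum count of 10, TMM, robust quasi-likelihood F test, group as the only term, Benjamini-Hochberg over 10124 genes, threshold 0.05); the steps were tested on simulated data. Log2 CPM used a prior count of 2. Standard errors come from the unshrunk estimate over the root of F, with 95% intervals from its degrees of freedom. Beyond counting noise, libraries of a group varied by 23.6% (typical coefficient of variation). Ratios were compared with exact permutation tests over libraries. The named genes were the 10 members, the 5 genes most like Hyou1, and 2 kinds of gene from each related list. These were the 2 most abundant and the 2 with the largest absolute log2 fold change. Xbp1, Ganab, Nfe2l1, Edem1 and Tmed10 were named after their values were seen. Canx and Pdia3 were named only as genes shared between lists. Members, lists and tests were chosen with earlier results of these data known. Alternatives were other scalings (DESeq2 size factors, upper quartile, none), no or a stricter low-count filter (minimum count 30), DESeq2 1.42.0, limma-voom (limma 3.58.1), no robust estimation, the replicate number as a block, and each library left out. Coordinates are from GENCODE M21 on GRCm38, which is mm10.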

Additional observations from a re-analysis of the deposited data

How the results depend on the processing

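No BiP cycle member passed in any of the 15 alternative fits, in which 141 of 150 estimates for single members kept their direction; the lowest adjusted p of a member was 0.407, for Sil1 without DMSO replicate 1. The 9 estimates that changed sign all came from leaving out 1 library. With each library left out, the log2 fold change ran from -0.093 to 0.47 for Hyou1, -0.16 to 0.63 for Hsp90b1, -0.059 to 0.34 for Manf, -0.27 to 0.039 for Dnajb9, -0.12 to 0.028 for Dnajb11 and -0.056 to 0.036 for Dnajc3. The difference in the log2 ratio to Hspa5 ran from -0.24 to 0.066 for Hyou1, -0.60 to 0.60 for Hsp90b1, -0.40 to 0.077 for Dnajc10 and -0.42 to 0.017 for Manf. The median of the members ran from 0.031 to 0.14 and that of the other J proteins and BiP partners from -0.086 to 0.18. Over all genes, 3 passed with all libraries in edgeR, 21 without a low-count filter, 18 in DESeq2, and 1 (without DMSO replicate 3 or compound 33 replicate 1) to 7 (without DMSO replicate 1) with a library left out; for the filter and DESeq2 the cause was not tested.

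Same-numbered libraries deviated from their group means with correlations of -0.03, 0.21 and 0.08. The numbers were not treated as pairs, because the labels do not say that they mark shared animals or days. DMSO replicates 2 and 3 were most like the compound 33 library of their own number, and DMSO replicate 1 was most like compound 33 replicate 3. With the replicate block 7 genes and 0 members passed, and the log2 fold change was 0.20 for Hyou1 and 0.36 for Hsp90b1. Counting noise was close to the whole spread for Dnajc3 with DMSO (4.79% of 4.85%), while for BiP and Sil1 the spread between libraries exceeded it in both groups.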
